A study of Mus musculus with 6 samples.

Results

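Among the human-named rows of the small RNA table, those with a miRNA number of 3000 or more were examined. The members were chosen by their number and by the deposited values, as the rows above the lowest value of the table, called the floor, in at least 1 of 6 libraries. This gave 61 members out of 943 such rows (6.47%) and out of 373 rows of any number above the floor, in a table of 1983 rows. The rule did not use genotype, but the members were chosen with earlier results of these data known. Members ran from miR-3065-5p to miR-6724-5p by number, and they carried 60 different numbers, with both arms listed for miR-4433 only.

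MicroRNAs are short RNAs cut from a hairpin precursor by Drosha and Dicer and loaded into Argonaute, where bases 2 to 8, the seed, select target mRNAs. miRBase gives numbers in order of registration, so that low numbers are mostly old, conserved families and high numbers mostly come from later deep sequencing of human samples. Several of the late human entries lie inside other RNAs. The human gene of miR-3607 lies in a small nucleolar RNA, SNORD138, those of miR-3648 and miR-6724 lie in the ribosomal RNA repeat, and miR-4454 matches a piece of a transfer RNA. A row with such a name therefore counts mouse reads that matched the listed sequence, and it does not show that a mouse miRNA was made.

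Libraries came from epididymal WAT of male C57BL6/J mice, in 6 samples, 3 Wt and 3 Agt Tg, and the labels do not say whether each library came from a different mouse, so that p-values measure the spread between these libraries only. Agt Tg mice carry an angiotensinogen transgene driven by the aP2 (Fabp4) promoter, which is active in adipocytes and also in macrophages, so that RNA of the whole tissue cannot tell the cell type that responded. The sample labels give a chow diet for both genotypes, whereas the paper describes a low fat diet, and an age was not given. In such bulk tissue, fewer cells of a type and less RNA per cell cannot be told apart. Nothing in the labels ties a replicate number of one genotype to the same number of the other.

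Library totals, recovered from the steps between values, lay between 6387766 reads (Agt Tg replicate 2) and 10562634 reads (Agt Tg replicate 3). The 5 adipocyte tissue markers (miR-143-3p, miR-103a-3p, miR-107, miR-30a-5p and miR-378a-3p) were above the floor in every library and took 10.2% to 13.99% of the reads on listed miRNAs. Wt replicate 2 stood apart, since 10 markers of epididymis, testis and other epithelium took 2.51% of its listed reads and 0.0194% to 0.0319% in the other libraries, with miR-429 at the floor throughout. In that library 18 rows exceeded their next highest value by more than 2 on the log2 scale, and 0 of the 61 members were among them. The counts at the threshold and of groups without overlap are also given without this library. Its part in other results was not tested.

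Only 4 of the 61 members shared their number with a mouse miRNA gene in RefSeq (GRCm38.p6), compared with 288 of 296 rows numbered under 1000 above the floor and 5 of 16 rows numbered from 1000 to under 3000. A shared number is no proof of an identical sequence. The 4 members were miR-3065-5p, miR-3074-5p, miR-3960 and miR-5100, and the mouse sequences of these are shown because they are the members for which a mouse source is annotated. Capitals mark the seed of a mature sequence, and the hairpin of Mir3960 is given whole since no mature sequence was listed for it. The 2 partners encoded on the opposite strand follow their member.
mmu-miR-3065-5p: uCAACAAAaucacugaugcugg
mmu-miR-338-3p: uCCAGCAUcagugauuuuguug
mmu-miR-3074-5p: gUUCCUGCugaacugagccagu
mmu-miR-24-3p: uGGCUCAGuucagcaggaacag
mmu-miR-5100: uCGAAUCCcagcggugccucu
Mir3960 hairpin: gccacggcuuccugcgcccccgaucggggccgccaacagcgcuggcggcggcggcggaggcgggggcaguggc

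Mir3065 (chr11:120014767-120014853, plus strand) lies opposite Mir338, which is on the minus strand within an intron of Aatk, and all 87 bases of its hairpin overlap that of Mir338. The mature miR-3065-5p and miR-338-3p share 21 bases of genome as reverse complements. Mir3074-1 (chr13:63301199-63301283, minus strand) lies opposite Mir24-1, and 68 of its 85 bases overlap that hairpin. Mir3074-2 (chr8:84208825-84208907, minus strand) lies opposite Mir24-2, and all its 83 bases overlap. The mature miR-3074-5p shares 20 bases with miR-24-3p as reverse complements. Mir5100 (chr11:60728663-60728726, plus strand) lies in an intron of Mief2, a mitochondrial fission factor, on the same strand. Mir3960 (chr2:32712900-32712972, minus strand) overlaps an exon of Cdk9, a kinase of transcription elongation, on the same strand, and 82.2% of its 73 bases are G or C. None of the seeds of mouse miR-3065-5p, miR-3074-5p and miR-5100 was shared with another mature mouse miRNA of the RefSeq table. For the other 57 members no sequence was at hand, and these are named only.

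Between 46 and 48 of the members were above the floor in each library. In all 6 libraries 30 members were above the floor, 10 in 5, 6 in 4, 3 in 3, 6 in 2 and 6 in only 1. Levels are given as reads per 10000000 reads of the library, and the floor of 10 was worth 6.39 to 10.6 reads. The mean level over the 6 libraries ran from 10.03 to 2790, with a median of 26.7, compared with a median of 270 for rows numbered under 1000 and of 20.8 for rows numbered from 1000 to under 3000. Only 18 members had a mean of at least 100 and 4 a mean of at least 1000. At the lower edge of the rule stood miR-4695-3p, which was at 10.2 in Wt replicate 3 and at the floor elsewhere, and 15 members had a highest value under 20. The 882 other rows of the same numbers were at the floor in every library, and no row numbered between 1914 and 3000 was above it. Most members therefore lay close to the floor.

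The 10 most abundant members held 83.9% of the reads on all members. They were, from the highest mean, miR-3195, miR-4730, miR-4454, miR-4792, miR-3607-3p, miR-4707-5p, miR-4634, miR-5002-5p, miR-4532 and miR-4516. Among the 373 rows above the floor, miR-3195 ranked 79 by mean level. Within a genotype the coefficient of variation of these 10 lay between 5.52% and 42.0% in Wt and between 8.12% and 36.1% in Agt Tg mice.

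**Figure D1:**
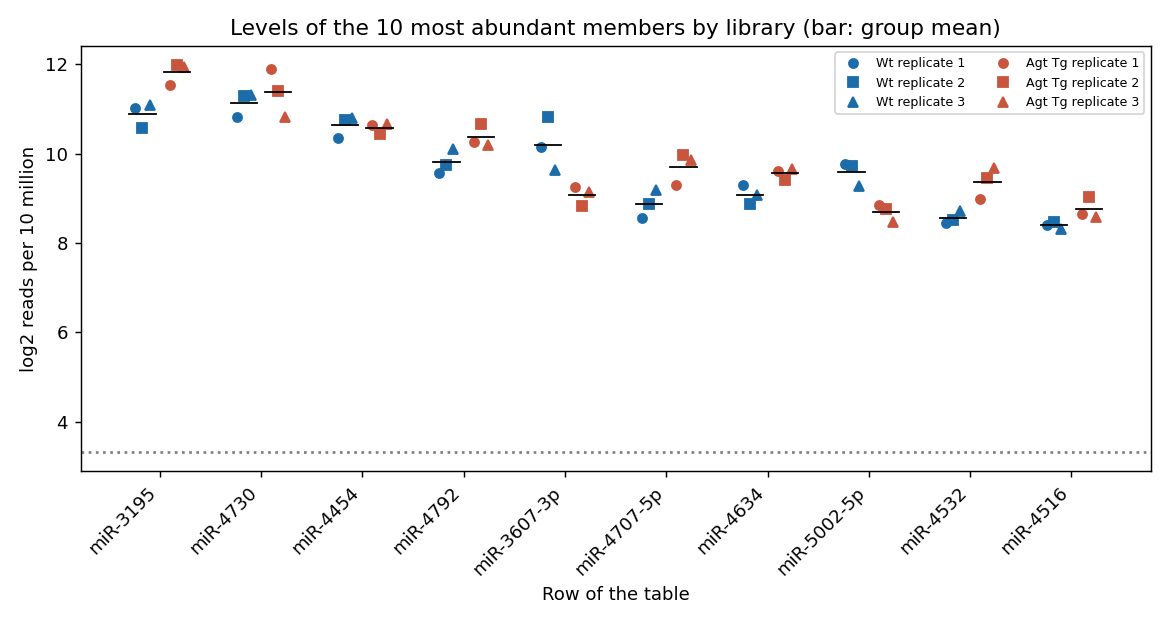
Levels of the 10 most abundant members in each library, as log2 reads per 10000000 (vertical axis). Blue points are Wt and red points Agt Tg libraries, with a marker shape per replicate number, and black bars are group means. The Agt Tg points lie above all Wt points in 6 members and below them in miR-3607-3p and miR-5002-5p, where 6.99% and 10.6% of all rows tested had such an order.

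miR-3195 was the most abundant member. It was at 2093, 1518 and 2184 in Wt replicates 1, 2 and 3 and at 2955, 4036 and 3952 in Agt Tg replicates 1, 2 and 3. The lowest Agt Tg library lay above the highest Wt library. Its log2 fold change was 0.92 (SE 0.24, limma adjusted p = 0.382), just under the 2-fold limit used here. It passed that limit and the threshold under TMM scaling (1.05), with limma-voom (1.04), without Wt replicate 3 (1.02) and without Agt Tg replicate 1 (1.07), and it was 0.76 without Wt replicate 2. Its share of the reads on members, which does not depend on the scaling of libraries, was 11.9% to 18.1% in Wt and 19.2% to 26.2% in Agt Tg mice.

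miR-4730 was at 1807, 2505 and 2541 in Wt and at 3815, 2710 and 1812 in Agt Tg mice. The groups overlapped, since Agt Tg replicate 3 lay next to the lowest Wt library, and the log2 fold change was 0.23 (standard error 0.31). miR-4454, a human transfer RNA match, was at 1311, 1721 and 1774 in Wt and at 1589, 1385 and 1610 in Agt Tg mice. It had the smallest difference of these 10 members, with a log2 fold change of −0.06 (standard error 0.22), which was 0.07 under TMM scaling. miR-4730 was the most abundant member in Wt replicates 2 and 3 and in Agt Tg replicate 1, and miR-3195 in the other libraries, and the ranges of this pair overlapped in both genotypes.

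miR-4792 was at 758, 860 and 1109 in Wt and at 1234, 1612 and 1167 in Agt Tg mice. miR-4707-5p was at 377, 472 and 580 in Wt and at 630, 1000.3 and 932 in Agt Tg mice. miR-4532 was at 346, 367 and 422.5 in Wt and at 510, 701 and 817 in Agt Tg mice. All 3 rows had every Agt Tg library above every Wt library. Their log2 fold changes were 0.56 (standard error 0.25), 0.84 (standard error 0.29) and 0.81 (standard error 0.27), with limma adjusted p of 0.531, 0.402 and 0.382. miR-4634 was at 627, 469.5 and 541 in Wt and at 788, 684 and 804 in Agt Tg mice. miR-4516 was at 337, 356 and 319 in Wt and at 400.3, 521 and 383 in Agt Tg mice. The groups of miR-4634 and miR-4516 did not overlap either, with smaller log2 fold changes of 0.48 (standard error 0.23) and 0.36 (standard error 0.24).

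Beside miR-4454, 2 of the 10 had a negative log2 fold change, and both were without overlap between genotypes. miR-3607-3p, named after a human gene in SNORD138, was at 1134, 1822 and 792 in Wt and at 612, 450.9 and 567 in Agt Tg mice. It was the only one of the 10 past the 2-fold limit, with a difference of −1.13 on the log2 scale (SE 0.34, limma adjusted p = 0.382). Its highest library was Wt replicate 2, the one with epithelial markers, and leaving it out gave −0.81, under the 2-fold limit. miR-5002-5p was at 869, 842 and 622 in Wt and at 461, 435 and 353 in Agt Tg mice. No Agt Tg library reached the lowest Wt library, and its log2 fold change was −0.89 (SE 0.25, limma adjusted p = 0.382), under the 2-fold limit.

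Reads on all 61 members were 0.213%, 0.231% and 0.225% of the listed reads in Wt replicates 1, 2 and 3, and 0.288%, 0.317% and 0.275% in Agt Tg replicates 1, 2 and 3. The means were 0.223% ± 0.00897 (SD, n = 3) and 0.293% ± 0.0216 (SD, n = 3), a ratio of 1.31. Every Agt Tg library lay above every Wt library, and the exact (Clopper-Pearson) 95% interval, which covers counting error only, was 0.311% to 0.323% for the highest library and 0.209% to 0.218% for the lowest. The difference was 0.0702 percentage points of the listed reads. As a share of the library total, which is a larger number of reads, the means were 0.124% in Wt and 0.156% in Agt Tg libraries. That is a difference of 0.0323 percentage points and a ratio of 1.26. Without miR-3195, miR-4730 and miR-4454 the share of listed reads was 0.118% ± 0.00748 for the 3 Wt and 0.144% ± 0.0147 for the 3 Agt Tg libraries (SD), a ratio of 1.22. The 4 leukocyte markers (miR-142-5p, miR-142-3p, miR-223-3p and miR-150-5p) took 0.736% to 0.758% of the listed reads in Wt and 0.516% to 0.723% in Agt Tg libraries, also without overlap and in the other direction. The other marker lists overlapped between genotypes. Adipocyte tissue markers took 10.2% to 10.7% in Wt and 10.3% to 13.99% in Agt Tg libraries. Endothelium markers took 1.24% to 1.61% and 1.45% to 2.16%, and erythroid markers 0.918% to 3.16% and 1.69% to 3.89%. The part of any of these lists in the share of the members was not tested. No test was made of the share of the members, since the members were chosen with earlier results known. Rows numbered from 1000 to under 3000 took 0.0306% to 0.0386% of the listed reads in Wt and 0.0331% to 0.0387% in Agt Tg mice, and these ranges overlapped.

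**Figure D2:**
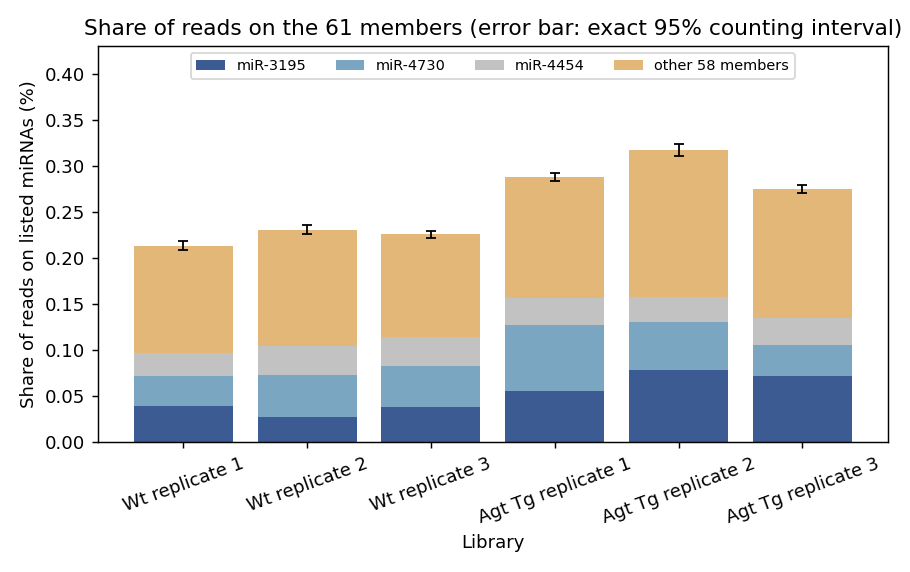
Share of the reads on listed miRNAs that fell on the 61 members, in percent (vertical axis), for each library (horizontal axis). Stacked bars split the share into miR-3195, miR-4730, miR-4454 and the other 58 members, and error bars are exact 95% counting intervals of the whole bar. The 3 Agt Tg bars end between 0.275% and 0.317%, above the 3 Wt bars at 0.213% to 0.231%.

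To compare genotypes row by row, limma was fitted on the log2 values of all 329 rows above the floor in at least 3 libraries, of which 49 were members. The threshold was a change of 2-fold or more, in either direction, with a p of 0.05 or less before adjustment. No row of the table passed a Benjamini-Hochberg adjusted p under 0.05 (0% of the 329), by limma on the log2 values or by limma-voom, and the smallest adjusted p of a member was 0.382. At an unadjusted p of at most 0.05 stood 17 of the 49 members, 13 higher and 4 lower in Agt Tg mice, against 9.12% of all rows tested. With the 2-fold limit 8 members were higher, where 2.74% of all rows were, and 2 were lower, where 2.13% were. Of the 9 rows of any number that were higher, 8 were members, but without Wt replicate 2 it was 7 of 12. Since the members were chosen with earlier results known, these counts describe them and do not test the set. Groups did not overlap in 18 members with Agt Tg higher, against 6.99% of all rows, and in 7 with Agt Tg lower, against 10.6%. The 7 hold both miR-4258 and miR-4439, which had the same value in each library, as do the later counts of this kind.

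These counts hold 2 members that had to differ. Since the filter needs 3 libraries above the floor, miR-4757-5p passed it through the Agt Tg libraries alone and miR-4772-5p through the Wt libraries alone. Among the 47 members above the floor in both genotypes, 7 were higher at the threshold, where 2.16% of all such rows were, and 2 were lower, where 2.16% were. At an unadjusted p of at most 0.05 stood 15 of the 47, against 8.33% of all such rows. Groups did not overlap in 17 of them with Agt Tg higher, against 6.17%, and in 6 with Agt Tg lower, against 10.2%. The 47 still hold rows that passed the filter mostly through 1 genotype. Among the 17, miR-6724-5p was above the floor in 1 Wt and 3 Agt Tg libraries. Among the 6, miR-3142, miR-4258 and miR-4439 were above it in 3 Wt libraries and 1 Agt Tg library. The recount therefore does not remove the whole effect of the filter.

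The shares over all rows depended on single libraries as well. Without Wt replicate 2, 7 members were higher, where 3.65% of all rows were, and 2 were lower, where 3.34% were. The 7 hold miR-4757-5p, and the 2 were miR-4737 and miR-4772-5p, since miR-3607-3p missed the threshold. Groups then did not overlap in 21 members with Agt Tg higher, against 13.1% of all rows, and in 8 with Agt Tg lower, against 26.4%. The 21 hold miR-4757-5p and the 8 hold miR-4772-5p, which had to differ. Without Agt Tg replicate 1, 9 members were higher, against 3.04%, while the 2 members lower were 4.08% of those tested and stood under the 7.6% of all rows. The 9 again hold miR-4757-5p. With all libraries the number of lower members was also 2, where 2.13% of all rows were lower. Only the share over all rows moved, and no excess or lack of lower members is read from a count of 2.

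The median log2 fold change of the 49 members was 0.29, compared with −0.19 over all 329 rows and −0.22 over the 280 rows that were no members. Of the 49, 29 had a positive and 20 a negative log2 fold change, and of the 280 other rows 78 had a positive one. The 12 rows numbered from 1000 to under 3000 had a median of 0.07 and 6 positive values, so that the negative median of the other rows came from the 268 rows numbered under 1000 (−0.22). TMM scaling moved the median of all rows to −0.06 and that of the members to 0.42. With a filter that kept only rows above the floor in all 6 libraries, the median over 30 members was 0.37, and 20 of them had a positive log2 fold change. The number of members higher at the threshold was 5 without Wt replicate 1 or without Agt Tg replicate 2, where 1.82% of all rows were. The number lower was 5 without Wt replicate 3, where 3.95% of all rows were. The members tested in these fits still held miR-4757-5p and miR-4772-5p, which had to differ. 

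**Figure D3:**
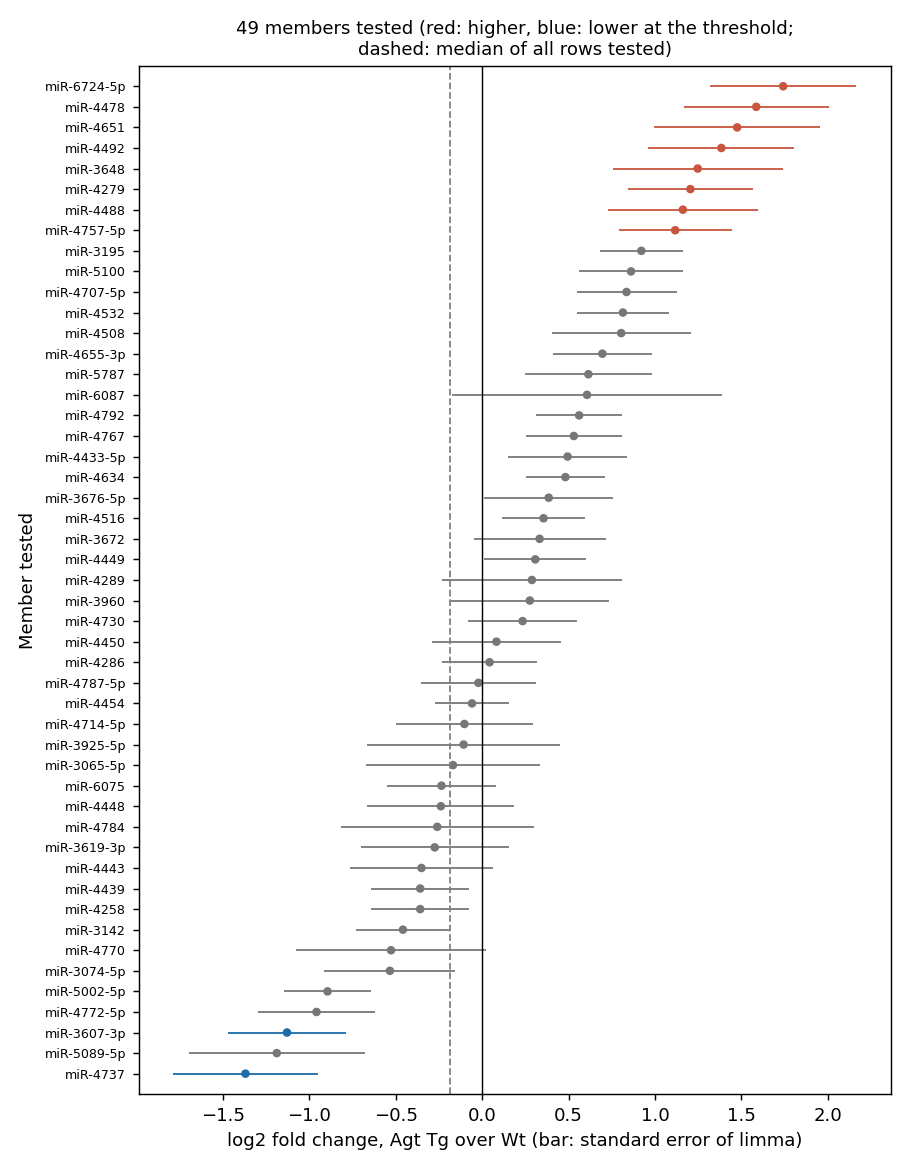
Log2 fold change of Agt Tg over Wt mice (horizontal axis) for the 49 members tested, sorted (vertical axis), with the standard error of limma as bars. Red marks the 8 members higher and blue the 2 members lower at the unadjusted threshold, and the dashed line is the median of all 329 rows tested, −0.19. 29 members lie to the right of 0 and 20 to the left. miR-4757-5p and miR-4772-5p were tested through 1 genotype alone and had to differ.

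Of the 8 members that were higher at the threshold, 3 were above the floor in all libraries. miR-4492 was at 62.8, 70.2 and 82.5 in Wt and at 108, 313 and 191 in Agt Tg mice, which stood for 47 to 81 reads and 112 to 202 reads. Its log2 fold change was 1.38 (SE 0.42, limma adjusted p = 0.382), and it passed the threshold with any 1 library left out. The human gene of miR-3648 lies in the ribosomal RNA repeat. miR-3648 was at 58.8, 29.3 and 78.4 in Wt and at 112, 199 and 81.4 in Agt Tg mice. Agt Tg replicate 3 lay close above Wt replicate 3 here. The log2 fold change was 1.25 (SE 0.49, limma adjusted p = 0.507), and miR-3648 missed the threshold when either of the first 2 Wt libraries was left out (1.35 and 0.84) and likewise for the first 2 Agt Tg libraries (1.31 and 0.89). miR-4488 was at 16.0, 20.4 and 14.3 in Wt and at 32.8, 67.3 and 23.7 in Agt Tg mice, with a difference of 1.16 on the log2 scale (SE 0.44, limma adjusted p = 0.485). With single libraries left out, miR-4488 stayed past the threshold only without Wt replicate 2 or Agt Tg replicate 3, and its log2 fold change lay between 0.74 (without Agt Tg replicate 2) and 1.49.

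The other 5 had at least 1 Wt library at the floor, so that their Wt level is an upper limit. The human gene of miR-6724-5p also lies in the ribosomal RNA repeat. miR-6724-5p lay at the floor for both Wt replicates 1 and 2, at 18.3 for Wt replicate 3 and at 37.6, 64.2 and 28.4 in Agt Tg mice. Its log2 fold change of 1.74 (SE 0.42, limma adjusted p = 0.382) was the largest of the members, and it stayed between 1.42 and 2.03 with any 1 library left out. miR-4478 was at the floor, 11.5 and 24.4 in Wt and at 44.4, 51.7 and 33.1 in Agt Tg mice (log2 fold change 1.59, standard error 0.42). These 2 rows passed the threshold with each library left out in turn.

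miR-4651 was at 12.03, 10.2 and the floor in Wt and at 21.2, 62.6 and 19.9 in Agt Tg mice (log2 fold change 1.48, standard error 0.48). The value of Agt Tg replicate 2 decided this call, since without it the log2 fold change was 0.94. miR-4279 was at the floor, 17.9 and 20.4 in Wt and at 31.8, 42.3 and 33.1 in Agt Tg mice (log2 fold change 1.21, standard error 0.36), and it missed the threshold without Wt replicate 1 (0.89). miR-4757-5p was at the floor in all Wt libraries and at 16.4, 31.3 and 19.9 in Agt Tg mice, that is 17, 20 and 21 reads, which were at least 2.25-fold higher on average than the floor. Its log2 fold change was 1.12 (standard error 0.33), and 0.85 without Agt Tg replicate 2.

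In all 8 members the highest library was Agt Tg replicate 2, the one with the fewest reads. That library also had the lowest share of its reads on listed miRNAs, 51.8%, against 53.4% to 57.2% in the others. Over all 49 members tested, Agt Tg replicate 2 was the highest library in 18 and Wt replicate 2 in 11, while Wt replicate 1 was the highest in 3. The part of library depth, or of the share of listed reads, in this was not tested. On a scale of log2(RPM + 1) (RPM being the level used here divided by 10), a scale that shrinks differences of rows with few reads, 4 of the 8 rows, miR-4488, miR-4279, miR-4651 and miR-4757-5p, fell under the 2-fold limit.

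**Figure D4:**
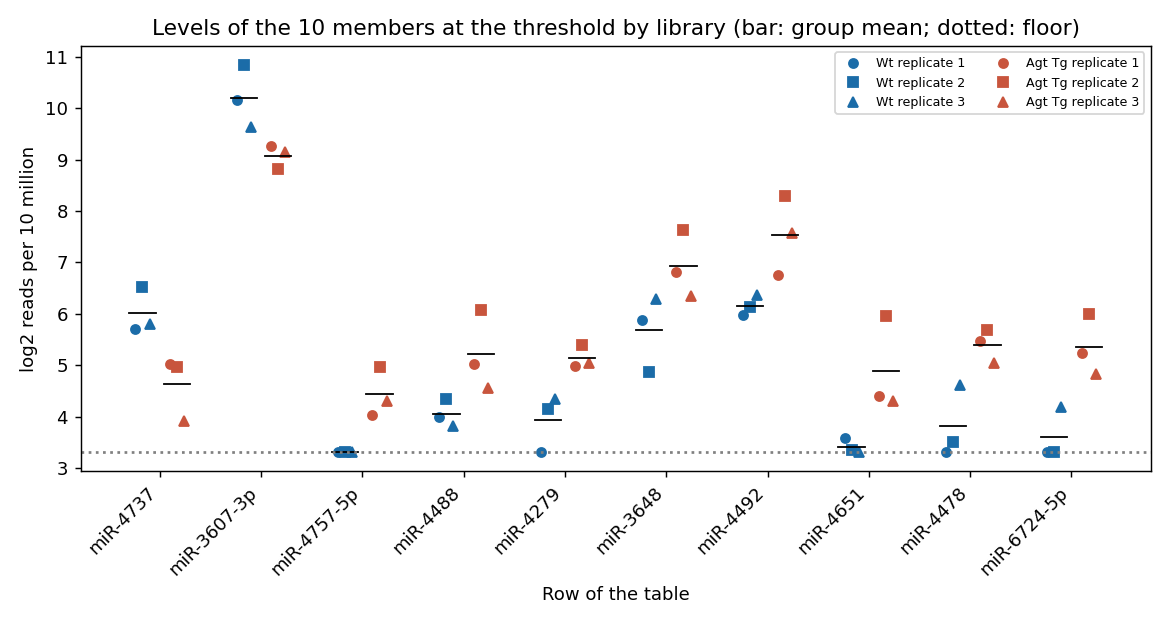
Levels of the 10 members at the unadjusted threshold in each library, as log2 reads per 10000000 (vertical axis), sorted by log2 fold change. Blue points are Wt and red points Agt Tg libraries, black bars are group means and the dotted line is the floor. The 2 members on the left, miR-4737 and miR-3607-3p, have all Agt Tg points under the Wt points, and the 8 others have them above, among them miR-4757-5p, which was tested through its Agt Tg libraries alone.

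Beside miR-3607-3p, the member that was lower at the threshold was miR-4737. It was at 52.1, 91.8 and 56.0 in Wt and at 32.8, 31.3 and 15.1 in Agt Tg mice, and no Agt Tg library reached the lowest Wt library. It differed by −1.37 (log2, standard error 0.42, limma adjusted p = 0.382) and lay between −1.57 and −1.01 with any 1 library left out. The highest Wt value was again that of Wt replicate 2, as it was in 8 of the 20 members with a negative log2 fold change. miR-5002-5p had an unadjusted p under 0.05 and lower levels in Agt Tg mice without reaching the 2-fold limit. miR-4772-5p was at 29.4, 15.3 and 16.3 in Wt and at the floor in all Agt Tg libraries, and since it was tested only because of its Wt libraries its p says nothing. Higher under the same conditions were 5 members, miR-3195, miR-4532, miR-4707-5p, miR-4655-3p and miR-5100.

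miR-5100 was at 49.5, 61.2 and 47.9 in Wt and at 86.8, 81.4 and 123 in Agt Tg mice, without overlap between genotypes (log2 fold change 0.86, standard error 0.30, limma adjusted p = 0.402). miR-3960 was at the floor, 23.0 and 10.2 in Wt and at 10.6, 17.2 and 22.7 in Agt Tg mice (log2 fold change 0.28, standard error 0.46), and the groups overlapped. miR-2861, whose mouse gene is close to Mir3960, was at the floor in all 6 libraries.

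miR-3065-5p was at 25.4, 12.8 and 11.2 in Wt, at the floor in Agt Tg replicates 1 and 2 and at 25.6 in Agt Tg replicate 3 (log2 fold change −0.17, standard error 0.50), a difference that changed sign without Wt replicate 1 (0.19). Its partner miR-338-3p, encoded on the opposite strand, was at 254 to 478 in Wt and at 326 to 428 in Agt Tg mice. miR-3074-5p was at 30.7, 24.2 and 21.4 in Wt and at 24.1, 10.96 and 19.9 in Agt Tg mice (log2 fold change −0.53, standard error 0.38), and miR-24-3p, its partner, was at 2143 to 3179 and at 2248 to 3023. In both pairs every library held the strand with the lower number at a higher level. Whether the counting kept reads of opposite strands apart is not given in the sources used here.

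Of the lists of origin, 2 of 5 numbers with an antisense partner were above the floor, and 2 of the 4 ribosomal RNA numbers that had a row (miR-3648 and miR-6724-5p). For the small nucleolar RNA numbers it was 1 of 3 (miR-3607-3p), and for transfer RNA 1 of 1 (miR-4454). Over all high-numbered rows, 6.47% were above the floor. The selection rule had already named miR-3607, miR-3648 and miR-6724, so that nothing is read from these counts. Rows with lower numbers whose human genes also overlap other small RNAs were mostly at the floor. miR-1246 (U2 small nuclear RNA), miR-1248 and miR-1291 (small nucleolar RNAs), miR-663a (ribosomal RNA), the listed arms of miR-664a and miR-664b (small nucleolar RNAs) and miR-1260a (transfer RNA) were at the floor in all 6 libraries, and miR-663b rose above it in Agt Tg replicate 2 alone, at 18.8. miR-1260b was the exception, at 454, 529 and 607 in Wt and at 491, 789 and 963 in Agt Tg mice, with overlap.

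Of the 26 members tested that no rule named, 2 stood at an unadjusted p of at most 0.05, against 9.12% of all rows tested. They were miR-4655-3p and miR-4772-5p, the latter tested through its Wt libraries alone. The naming had already taken out every member at the threshold. The count and the signs of those left over were shaped by that, and nothing is read from them. The log2 fold changes of the 26 ran from −1.19 to 0.80, with 12 positive and 14 negative. At the lower end was miR-5089-5p, at 32.1, 68.9 and 23.4 in Wt and at 11.6, 26.6 and 14.2 in Agt Tg mice, with overlap. At the upper end was miR-4508, at 235, 93.1 and 216 in Wt and at 284, 337 and 264 in Agt Tg mice, where Wt replicate 2 was far under the other libraries. miR-4258 and miR-4439 had the same value in each of the 6 libraries, at most 16.6, so that their reads could not be told apart. The 12 members not tested never exceeded 29.7 (19 reads), and 7 of them were above the floor in Agt Tg libraries only, 3 in Wt libraries only and 2 in both.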

How the data were processed

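Small RNA of epididymal WAT was measured in 6 libraries, 3 Wt and 3 Agt Tg, grouped by the sample titles. The authors checked reads with FastQC, mapped them to miRBase precursors, kept reads on mature miRNAs and used the Gunaratne Next Generation Pipeline. A mapping to mm10 with Qseq version 12 is also named, while no source used here gives the miRBase release, the mismatches or the use of strand. The deposited values are log2 of reads per 10000000, with values under 10 raised to 10, as worked out from the values. Of 1924 values above the floor, 1924 were whole reads within 0.02, which gave the totals of 6387766 to 10562634 reads. Columns of values without a sample numbered 0.

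The members and lists were chosen with earlier results of these data known. limma 3.58.1 (R 4.3.3) with a variance trend and genotype as its only term was fitted on all 329 rows above the floor in at least 3 libraries, with Benjamini-Hochberg adjustment over all of them. The test was tried on simulated data. Shares carry exact 95% intervals (scipy 1.17.1), with values at the floor as 0 reads. An exact test of 3 against 3 cannot go under p = 0.1. Named were the 10 most abundant members, those at the threshold, those of the selection rule, those with a mouse gene of the same number and those in the lists of origin; miR-4655-3p, miR-4772-5p, miR-4695-3p, miR-5089-5p, miR-4508, miR-4258, miR-4439 and miR-4433 were chosen after their values were seen. Sequences are from RefSeq (GRCm38.p6), for 4 of 61 members, with gene context from GENCODE M21 (GRCm38). Alternatives were log2(RPM + 1), limma-voom, TMM scaling (30% and 5% trimmed), other filters, the replicate block and leaving out each library. Counts over rows above the floor in both genotypes, and of groups without overlap when Wt replicate 2 was left out, were added after seeing the data.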

Additional observations from a re-analysis of the deposited data

How the results depend on the processing

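Of 8 members higher at the threshold, 4 were left on the scale of log2(RPM + 1), against 1.22% of all rows. With only rows above the floor in all 6 libraries, 3 of 30 members were higher, against 1.11%. That filter removed the other 5 of the 8 from the test. Dropping single libraries gave 5 to 9 members higher, against 1.82% to 3.65% of all rows. Of 2 members lower, 1 was left by limma-voom with TMM scaling, against 1.22% of all rows (9 higher, against 3.04%). Dropping single libraries gave 2 to 5 members lower, against 1.22% to 7.6% of all rows. The median log2 fold change of the members kept its sign under all alternatives run (0.19 to 0.42). The share difference kept its direction, at 0.0323 percentage points of the library total (a ratio of 1.26). With the replicate number as a block, 7 were higher, against 2.43% of all rows, and 3 lower, against 2.74%. The block ended the call of miR-3648. Same-numbered libraries deviated together in 1 of 3 pairs (correlations 0.22, −0.18 and −0.21). Libraries of different numbers had correlations from −0.30 to 0.28, so this check could not tell whether the numbers pair the libraries. Of 269 values for named members under an alternative, 235 stayed on the same side of the threshold with the same sign, 19 fell under it, 7 rose past it and 8 changed sign. The sign changes were those of miR-4454 (−0.06, but 0.0689 under TMM scaling and under limma-voom, and from −0.1964 to 0.0214 when single libraries were dropped), miR-3065-5p (−0.17, from −0.6198 to 0.1939) and miR-4730 (0.23, from −0.0269 to 0.5101), and the cause was not tested. The floor of 6.39 to 10.6 reads limits what can be seen of rows with few reads.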
